A study of Mus musculus with 16 samples.

Results

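CD8 T cells sorted from mouse mammary tumours were compared after 3 days of dosing with entinostat, which blocks the class I histone deacetylases (HDACs), or with vehicle. The comparison was made over the 9384 genes with a mean of at least 16 CPM (counts scaled to the library total) across the 8 libraries of that day, out of 17414 genes tested and 24028 in the deposited table. No fold change or test entered that choice, but the mean was taken over both groups. A gene could thus pass the floor through the group where it was high. The members called higher with entinostat had a median vehicle level of 15.3 CPM, under the floor. Just under the floor stood Trmt44 with 15.99 CPM and just over it Tspan32 with 16.004 CPM. TS/A is a mouse mammary adenocarcinoma line, and here its cells had been injected into a mammary pad of BALB/c mice. Vehicle or entinostat at 20 mg/kg was given daily from day 7 after injection, and tumours were taken at day 10 (3 days after the first dose) or day 17. All groups carried the same tumour line, the labels name no genetic change of the mice, and the age of the animals is not given in the sources used here. The sort kept live cells that were positive for CD45.2 and CD8 and negative for CD4. Each group had 4 libraries, and the day 17 libraries entered here through the shared estimate of the spread and through a test of the difference between days. No label ties a library to an animal. The p-values then reflect only how far the 16 libraries spread within their groups, part of which may be technical.

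Class I HDACs remove acetyl groups from histones and other proteins, mostly as parts of corepressor complexes, and their inhibition raises acetylation at many genes. Genes can rise or fall in turn, since some HDAC complexes sit at active genes and are needed for full induction of interferon-stimulated genes. CD8 T cells in tumours recognise antigen on class I major histocompatibility complex (MHC) molecules and kill with perforin and granzymes. With continued stimulation they gain inhibitory receptors, a state called exhaustion.

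The day 10 libraries held 3640768 to 4227704 counts with vehicle and 2639019 to 5709243 counts with entinostat. Olfactory and vomeronasal receptors are not known in T cells, and the reads in their 1434 genes were taken as a gauge of reads that may not come from expression. The counts do not settle the source of these reads. Transcription of the receptor genes under the drug cannot be told apart from other reads here. The mean of these receptor reads was 1439 ± 583 CPM in the vehicle group and 3714 ± 2317 CPM in the entinostat group (SD, n = 4 each). They were lowest in vehicle replicate 2 (582.3 CPM) and entinostat replicate 4 (586 CPM), and the other 6 libraries had 1584 to 5726 CPM. The T cell genes that define the sort were high in all 8 libraries, with 456, 436, 456 and 394 CPM of Cd3e in vehicle replicates 1 to 4 and 448, 367, 406 and 342 CPM in entinostat replicates 1 to 4. Genes of other cell types were also read. Siglech, a lectin of plasmacytoid dendritic cells, reached 220.1 to 459 CPM with vehicle. Col1a1, a collagen of fibroblasts, stood at 212 CPM in vehicle replicate 4 and 288 CPM in entinostat replicate 4 and at 1.17 to 9.30 CPM in the others. Foxp3, the regulatory T cell factor, ran from 8.25 to 60.1 CPM with vehicle and from 0.515 to 21.6 CPM with entinostat.

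Of the 9384 genes, 1389 (14.8%) passed the edgeR quasi-likelihood test at an adjusted p of 0.05, close to the 14.6% of all 17414 tested genes. Lower genes were the larger share, with 1151 lower (12.3%) and 238 higher (2.54%) in entinostat-treated cells. The 4 entinostat libraries all lay below the 4 vehicle libraries for 2075 genes (22.1%) and all above for 290 (3.09%). The median log2 fold change of the 9384 genes was -0.18 in the scaling used (TMM), so a fold change near that value marks a gene that moved with most others. With library size alone the median was -0.02, and 407 genes were higher and 463 lower, or 46.8% higher against 17.1% in the TMM scaling. Of the 1151 lower genes, 197 fell more than 2-fold and 179 of these were also lower with library size alone. The other 954 changed by less, and 284 of them were lower with library size alone. All 238 higher genes were higher in both scalings.

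These counts also moved with single libraries. Without vehicle replicates 1, 2, 3 or 4 the lower genes numbered 504, 591, 507 and 734, and without entinostat replicates 1, 2 or 3 they numbered 529, 596 and 505. They numbered 759 without day 17 entinostat replicate 1. Higher genes fell to 118, 138 and 100 without vehicle replicates 1, 2 or 3 and to 118 and 102 without entinostat replicates 1 or 3. Without entinostat replicate 4 there were 1418 lower and 340 higher genes. With a block for replicate number nested in day, 704 were lower and 127 higher. With that block on the 8 libraries of day 10 alone, 649 were lower and 236 higher. Unless another setting is named, the genes described below with a fold change and called higher or lower kept their direction and their call under all 27 alternatives run on them, single libraries left out included.

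**Figure D1:**
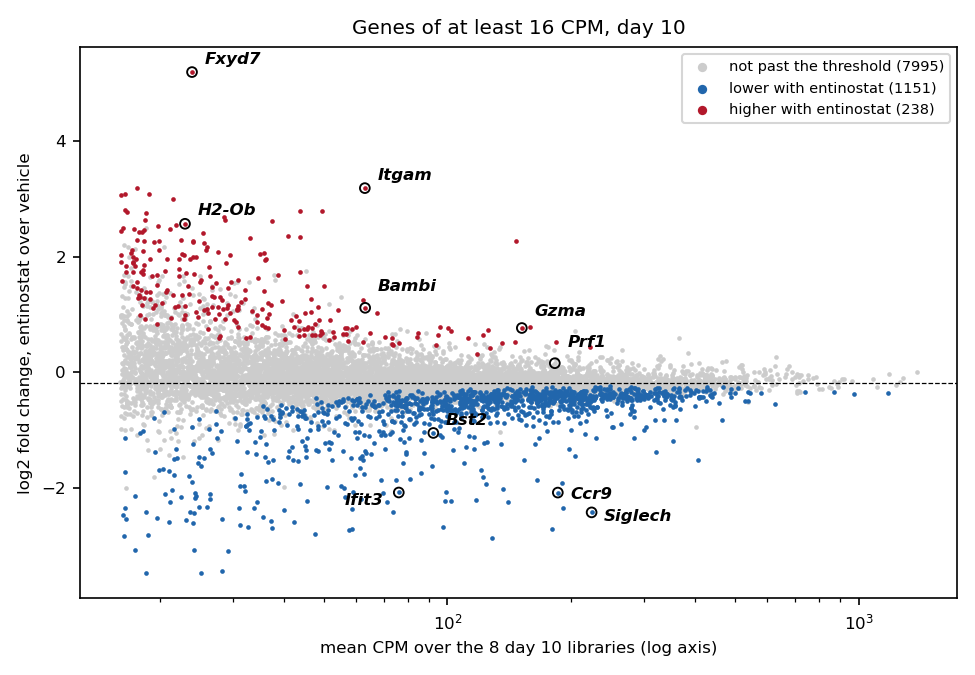
Log2 fold change of entinostat over vehicle at day 10 (vertical axis) against the mean CPM of the 8 libraries (horizontal log axis), each point 1 of the 9384 genes, with red for 238 higher and blue for 1151 lower genes at an edgeR adjusted p of 0.05. The dashed line marks the median of -0.18. Fxyd7 stands highest at 5.19, and most lower genes lie within 1 log2 unit of 0.

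Among the genes that rose, Fxyd7 changed from near absence to a clear signal. It encodes a small membrane protein that regulates the sodium pump and is best known in neurons (chromosome 7, 31042515 to 31051454, GRCm38). Fxyd7 had 1.53, 1.296, 0.293 and 1.83 CPM in vehicle replicates 1 to 4 and 41.6, 50.5, 49.03 and 45.2 CPM in entinostat replicates 1 to 4. The groups lay far apart, with a log2 fold change (± SE) of 5.19 ± 0.46 at an edgeR adjusted p of 6.9e-06. Atp1b1, a beta subunit of the pump that is also on the plasmacytoid list used here, had 168, 93.6, 179 and 202 CPM with vehicle and 31.98, 53.03, 34.8 and 32.9 CPM with entinostat, a log2 fold change of -2.07 ± 0.23 at an edgeR adjusted p of 7e-05. It moved the other way from Fxyd7, its groups did not overlap, and vehicle replicate 2 was the lowest vehicle library.

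Itgam, which encodes the CD11b chain of a beta-2 integrin carried by myeloid cells and by some activated CD8 T cells (chromosome 7, 128062640 to 128118491), had 8.86, 8.29, 23.5 and 9.41 CPM with vehicle and 126, 101, 118 and 108 CPM with entinostat. All 4 entinostat libraries exceeded the vehicle libraries, and the log2 fold change was 3.18 ± 0.34 (edgeR adjusted p = 4.17e-05). Of the myeloid genes measured beside it, Tyrobp, Cd68 and Cybb fell, as given below, while the macrophage gene Adgre1 rose below the floor, from 0.523 to 1.47 CPM with vehicle to 5.004 to 8.33 CPM with entinostat. The neutrophil list had 1 gene at the floor, with a log2 fold change of -0.09 and no call. Below the floor, log2 fold changes were 6.22 for S100a8, 4.67 for S100a9, 3.01 for Csf3r and 2.87 for Cxcr2. Ngp, Camp and Ltf of that list had means under 1 CPM. The summed level of the 10 neutrophil genes in the table ran from 5.44 to 50.4 CPM with vehicle and from 30.9 to 197 CPM with entinostat. S100a8 had 0, 20.3, 0.308 and 31.3 CPM in entinostat replicates 1 to 4, and the part of neutrophil reads in the rise of Itgam was not tested. Of 20 genes of the integrin list at the floor, Itgam alone rose and 3 fell (15%, beside 12.3% of all members). Itgae, the CD103 chain of tissue-resident T cells, was among those 3 with a log2 fold change of -1.14 ± 0.30, and its call was lost without vehicle replicates 2 or 3 or entinostat replicate 2. The list had 0 lower genes without vehicle replicate 2, 1 without vehicle replicate 3 and 1 with library size alone.

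H2-Ob, a chain of the H2-O protein that restrains peptide loading on class II MHC (chromosome 17, 34238905 to 34245908), had 6.42, 4.67, 7.04 and 8.37 CPM with vehicle and 34.95, 54.1, 30.5 and 37.9 CPM with entinostat. The groups did not overlap, and the log2 fold change was 2.57 ± 0.33 (edgeR adjusted p = 0.00018). Per kb, H2-Ob with entinostat stood at 3.10 times the receptor reads. H2-Ob is known as a B cell gene, and the B cell gene Ms4a1 had 45.7, 21.1, 35.5 and 2.86 CPM in entinostat replicates 1 to 4 against 1.81 to 3.67 CPM with vehicle. Receptor reads stood in the same order as Ms4a1 in entinostat replicates 1 to 4, at 5726, 3367, 5179 and 586 CPM. The part of such reads in Ms4a1 was not tested. Cd22, another B cell gene, had 6.11, 3.63, 5.86 and 10.5 CPM with vehicle and 11.5, 24.2, 15.4 and 18.1 CPM with entinostat, and Ms4a1 and Cd22 passed as higher below the floor, while Cd79b, Fcrla and Mzb1 of the same list were lower. The summed level of its 11 genes in the table ran from 86.8 to 215 CPM with vehicle and from 95.8 to 129 CPM with entinostat, and their part in the rise of H2-Ob was not tested. The remaining class II genes did not rise. Of 13 genes of that pathway at the floor, 4 were lower (H2-Aa, H2-Ea-ps, H2-DMa and Cd74) and H2-Ob alone was higher. The 4 made up 30.8%, beside 12.3% lower of all members. The number of lower ones ran from 1 without vehicle replicate 1 or entinostat replicate 3 to 8 without entinostat replicate 4, and was 2 without vehicle replicate 3 or entinostat replicates 1 or 2. H2-Aa, an alpha chain of class II, had 157, 55.2, 168 and 152 CPM with vehicle and 71.4, 44.5, 45.6 and 83.1 CPM with entinostat. Vehicle replicate 2 lay among the entinostat libraries for this gene, and reads may be shared with close relatives in the region.

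Bambi, a decoy receptor that dampens signals of the TGF-beta family, had 39.7, 44.3, 32.5 and 42.6 CPM with vehicle and 89.98, 91.1, 85.4 and 78.8 CPM with entinostat, a log2 fold change of 1.11 ± 0.18 at an edgeR adjusted p of 0.0011. Smad4, the shared mediator of those signals, had 225, 229, 221 and 218 CPM with vehicle and 111, 198, 94.1 and 135 CPM with entinostat, a log2 fold change of -0.73 ± 0.16 at an edgeR adjusted p of 0.00865. For both genes the groups were separate, and for Smad4 entinostat replicate 2 was closest to vehicle. The receptors Tgfbr1 and Tgfbr2 stood at -0.20 and 0.04, neither past the threshold, and Bambi and Smad4 were the only called genes among 18 of the pathway at the floor. The number higher was 2 without vehicle replicate 2, entinostat replicates 2 or 4, or day 17 vehicle replicates 1 or 4.

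Crmp1, Kif5c, Kif3a and Kiz were among the higher genes of smallest p. Crmp1, which links guidance receptors to the cytoskeleton in neurons, had 26.9, 24.4, 30.5 and 23.3 CPM with vehicle and 71.8, 70.5, 69.999 and 83.1 CPM with entinostat, a log2 fold change of 1.49 ± 0.27 at an edgeR adjusted p of 0.00244. Kif5c, a kinesin motor, had 24.4, 33.4, 18.8 and 19.1 CPM with vehicle and 67.7, 58.7, 74.01 and 68.99 CPM with entinostat, a log2 fold change of 1.49 ± 0.26. Kif3a, a motor of ciliary transport, rose by 1.23 ± 0.22 on the log2 scale, from 12.3 to 18.6 CPM across vehicle libraries to 31.6 to 37.2 CPM across entinostat libraries. Kiz, which stabilises spindle poles, rose by 1.06 ± 0.18. None of these 4 genes overlapped between groups. The wider list of synaptic and neuronal genes had 10 members at the floor, of which 3 were higher, Crmp1 and Syt11 among them, and 7 did not pass. It had 1 higher gene without vehicle replicate 3 or entinostat replicates 1 or 3.

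Pbx3, a homeodomain partner of Hox factors at 2.36 times the receptor density, had 8.56, 13.997, 10.3 and 9.67 CPM with vehicle and 32.3, 36.8, 29.9 and 36.6 CPM with entinostat, a log2 fold change of 1.67 ± 0.24 at an edgeR adjusted p of 0.000616. Cxcr5, the receptor that guides cells to B cell follicles, had 11.6, 19.2, 9.09 and 9.41 CPM with vehicle and 22.7, 85.98, 43.2 and 30.4 CPM with entinostat, a log2 fold change of 1.88 ± 0.38 at an edgeR adjusted p of 0.00504. Its entinostat libraries were all above vehicle but spread widely, with replicate 2 highest. Lta, a cytokine of the TNF family, had 25.4, 34.7, 30.8 and 27.98 CPM with vehicle and 57.6, 51.7, 56.4 and 75.1 CPM with entinostat, a log2 fold change of 1.02 ± 0.24 at an edgeR adjusted p of 0.0125. Gzma, a granule protease of cytotoxic cells, had 120.1, 102, 138 and 88.6 CPM with vehicle and 212, 179, 187 and 186 CPM with entinostat, a log2 fold change of 0.77 ± 0.19 at an edgeR adjusted p of 0.0145. Lilrb4a and Lilr4b, inhibitory receptors of the leukocyte immunoglobulin-like family, rose by 0.73 ± 0.16 and 0.79 ± 0.17. They are close relatives, so reads may be shared between them. The enzymes Gcat, of threonine breakdown, and Ggh, of folate turnover, rose by 1.27 ± 0.27 and 1.11 ± 0.22.

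**Figure D2:**
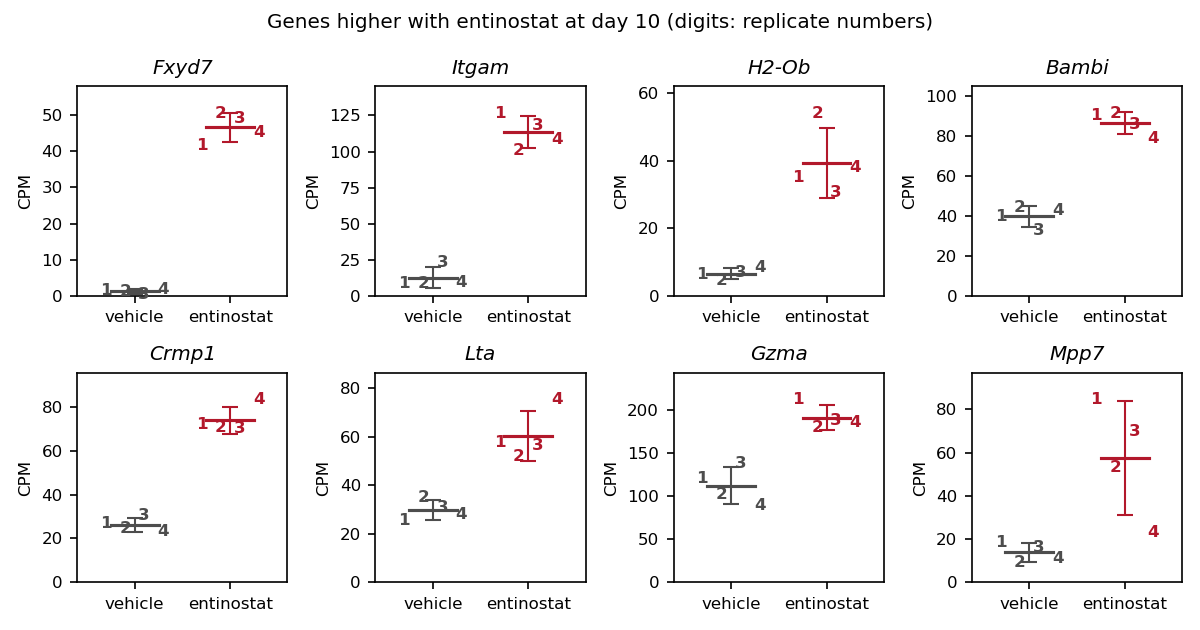
CPM (vertical axis, from 0) of 8 genes higher with entinostat at day 10, each digit the replicate number of 1 library, with a horizontal mark at each group mean and a bar that spans the SD (n = 4). In each gene entinostat replicate 4 lies above all vehicle libraries. It is the highest entinostat library in Crmp1 (83.1 CPM) and Lta (75.1 CPM), and in Mpp7 it stands at 23.1 CPM where the others have 53.3 to 84.4 CPM.

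Many of the other higher genes sat near the level of the receptor reads. The receptor genes had 1.03 CPM per kb of coding length with vehicle and 2.36 with entinostat. Of the 236 higher genes with a known exon length, 101 reached at least 3 times that density in a group, taken per kb of exon, and 135 did not. Of 8707 genes that reached it, 101 were higher (1.16%) and 1141 lower (13.1%). Each group was set against its own density, and passing in either group was enough. A gene lower with entinostat could pass by the smaller density of the vehicle group, so these shares were not held to the same cut. The 135 were long, with a median exon length of 11.0 kb against 4.84 kb over all members, and their median log2 fold change was 1.70. The 101 had a median length of 5.19 kb and a median log2 fold change of 0.79. Entinostat replicate 4, which had the fewest receptor reads of its group, was the lowest entinostat library for 94 of the 135 (69.6%) and for 22 of the 101 (21.8%), against 18.0% of all members.

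With receptor reads as a covariate, 158 of the 238 stayed higher, 78 of them among the 101. Mpp7, a scaffold protein of cell junctions with 1.21 times the receptor density with entinostat, had 18.6, 9.33, 16.1 and 11.2 CPM with vehicle and 84.4, 53.3, 69.999 and 23.1 CPM with entinostat, a log2 fold change of 2.05 ± 0.36. For Mpp7, replicate 4 was the lowest entinostat library yet above all vehicle libraries. How far receptor-like reads enter the fold changes of such genes was not tested.

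**Figure D3:**
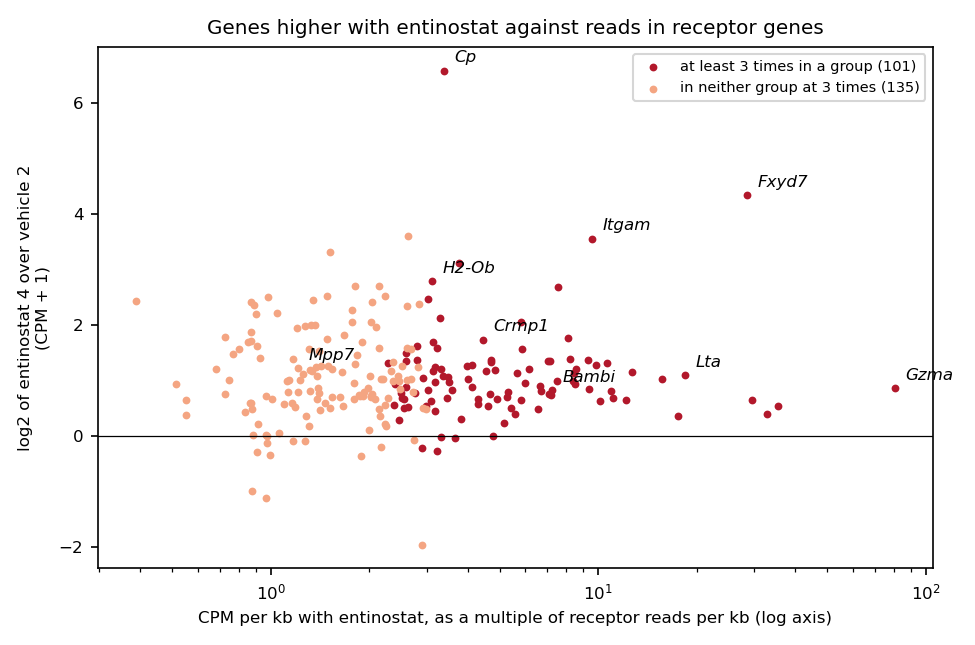
For 236 genes higher with entinostat at day 10, the vertical axis gives the log2 ratio of entinostat replicate 4 to vehicle replicate 2 (CPM + 1). The horizontal log axis gives CPM per kb of exon with entinostat as a multiple of the receptor reads per kb of coding length. Dark points are the 101 genes of at least 3 times the receptor density in a group and pale points the 135 others and Fxyd7 and Itgam lie far above 0. Both libraries entered the calls, so ratios above 0 follow in part from the choice of the genes. Cp, at the top, had 219 CPM in entinostat replicate 4 and 19.6 to 42.4 CPM in the other entinostat libraries.

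Genes of plasmacytoid dendritic cells, which secrete type I interferon in large amounts, were lower with entinostat. Of 20 markers at the floor, 19 were lower (95%, beside 12.3% of all members) and 0 higher. Their median log2 fold change was -1.92 against -0.18 over all members. The count was 19 with each library left out in turn and 18 to 20 over the other settings at that floor. Siglech, their surface lectin (chromosome 7, 55768154 to 55779448), had 396, 220.1, 459 and 437 CPM with vehicle and 76.97, 34.5, 66.9 and 103 CPM with entinostat, a log2 fold change of -2.42 ± 0.28 at an edgeR adjusted p of 9.47e-05. Ccr9, a chemokine receptor they share with gut-homing T cells, had 308, 193, 320.4 and 379 CPM with vehicle and 76.2, 54.6, 69.7 and 83.5 CPM with entinostat, a log2 fold change of -2.08 ± 0.17 at an edgeR adjusted p of 5.04e-06. The groups did not overlap in either gene, and vehicle replicate 2 was the lowest vehicle library. That library was the lowest vehicle library for all 20 markers, although it was so for 24.9% of all members. Irf8, a transcription factor of dendritic cells that T cells also make, had 570.1, 295, 545 and 551 CPM with vehicle and 215, 190.5, 207 and 251 CPM with entinostat, a log2 fold change of -1.18 ± 0.18 at an edgeR adjusted p of 0.000681. The summed level of the 24 markers in the table ran from 2387 (replicate 2) to 4616 CPM with vehicle and from 1136 to 1692 CPM with entinostat. In these bulk libraries, fewer cells of a type and less RNA per cell cannot be told apart.

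Some genes on the lists of other antigen-presenting cells were lower too, while others on them were not. Of 9 macrophage and monocyte genes at the floor, 7 were lower (77.8%, beside 12.3% of all members), a count that held with each library left out. Cybb, a subunit of the phagocyte oxidase that is not on the plasmacytoid list, had 361, 168, 339 and 404 CPM with vehicle and 83.7, 43.8, 62.9 and 61.7 CPM with entinostat, a log2 fold change of -2.34 ± 0.23 at an edgeR adjusted p of 2.79e-05. Tyrobp, an adaptor that couples activating receptors of myeloid and natural killer cells, had 152, 89.9, 138 and 149.6 CPM with vehicle and 36.4, 41.2, 38.5 and 42.9 CPM with entinostat, a log2 fold change of -1.73 ± 0.18. Cd68, a lysosomal protein of macrophages, fell by 1.65 ± 0.23 on the log2 scale. The defining macrophage gene Adgre1 rose, as given above, and C1qb, C1qc and Fcgr1 had means under 1 CPM. Csf1r, another macrophage gene, had 16.5, 1.81, 3.22 and 2.35 CPM with vehicle and 7.06, 5.66, 5.55 and 15.7 CPM with entinostat. Vehicle replicate 2 was the lowest vehicle library for 7 of the 9 macrophage and monocyte genes at the floor. It was so for 8 of the 9 conventional dendritic cell markers at the floor. The summed level of the 22 macrophage and monocyte markers in the table ran from 1064 to 1641 CPM with vehicle and from 768 to 908 CPM with entinostat. Of 9 conventional dendritic cell markers 3 were lower (Cd209a, Clec10a and Flt3), or 33.3% beside 12.3% of all members. The count was 5 without vehicle replicate 2 and entinostat replicate 4 together. Flt3, a growth factor receptor of dendritic cells that the plasmacytoid list holds too, had 199.5, 76.98, 173 and 224 CPM with vehicle and 23.1, 23.2, 28.4 and 30.4 CPM with entinostat. Mzb1 and Fcrla, listed as B cell genes, fell by 2.53 ± 0.41 and 2.69 ± 0.36. Cd4, whose product the gate excluded, had 34.8, 17.9, 38.4 and 32.9 CPM with vehicle and 5.21, 10.3, 8.94 and 14.1 CPM with entinostat, a log2 fold change of -1.66 ± 0.30. The list of CD4 and regulatory T cell markers did not fall with it. Of its 9 genes at the floor 2 had fold changes below 0, and the median was 0.21. Il2ra of that list rose by 0.72 ± 0.23, a call that 11 alternatives ended. Their summed level ran from 798 to 916 CPM with vehicle and from 988 to 1095 CPM with entinostat.

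The pattern of vehicle replicate 2 ran through the strongest falls. Of the 197 genes that fell more than 2-fold, it was the lowest vehicle library for 172 (87.3%). Of those 197, 27 are on the dendritic cell, macrophage or B cell lists, 14 on the interferon list (Bst2 is on both) and 157 on neither. Lysosomal and endosomal genes were 14 lower of 26 (53.8%, beside 12.3% of all members), with vehicle replicate 2 lowest in 20 of the 26. Grn, which encodes progranulin, had 511, 299, 523 and 529 CPM with vehicle and 161, 139, 167 and 245 CPM with entinostat, a log2 fold change of -1.38 ± 0.19. Npc1, the lysosomal cholesterol exporter, fell by 1.14 ± 0.16 on the log2 scale. The lysosomal count was 9 without vehicle replicates 1 or 3 or entinostat replicates 1 or 3, and 10 with library size alone. Syk, a kinase of myeloid and B cells, fell by 2.22 ± 0.24, and Csf2rb, the shared receptor chain of GM-CSF, IL-3 and IL-5, by 2.23 ± 0.39. The part of cells of other types in these falls was not tested.

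**Figure D4:**
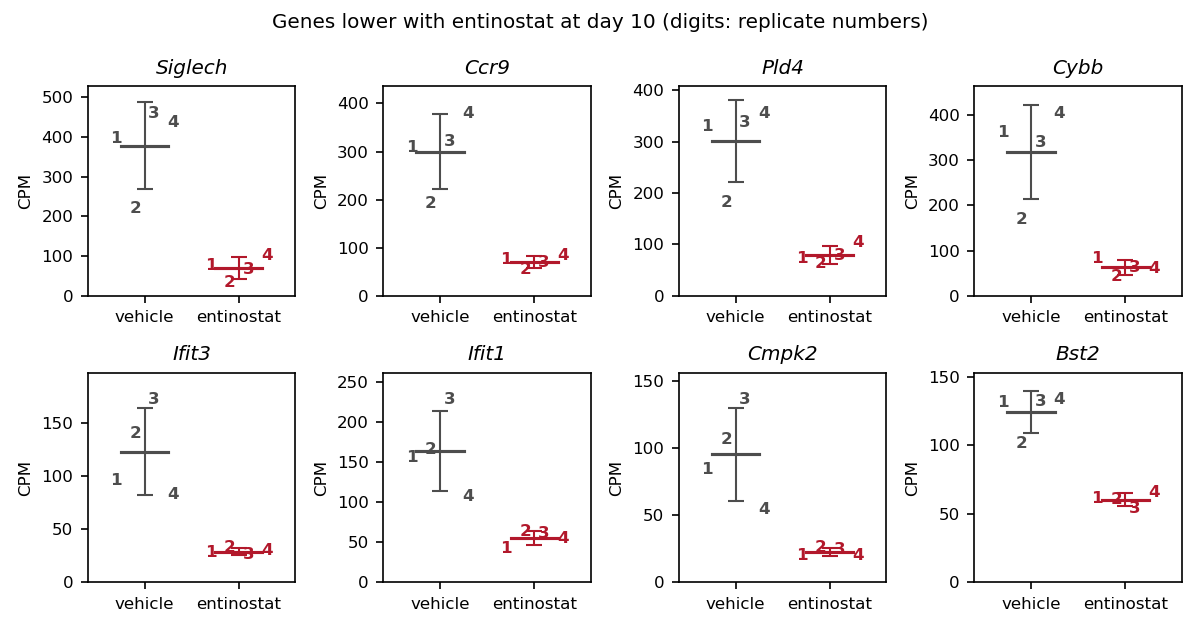
CPM (vertical axis, from 0) of 8 genes lower with entinostat at day 10, each digit the replicate number of 1 library, with a horizontal mark at each group mean and a bar that spans the SD (n = 4). In Siglech, Ccr9, Pld4, Cybb and Bst2 vehicle replicate 2 is the lowest vehicle library, in Ifit3, Ifit1 and Cmpk2 it is vehicle replicate 4, and in none of the 8 do the groups overlap.

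Antiviral genes induced by type I interferon fell as a group. Of 34 effectors at the floor, 26 were lower (76.5%, beside 12.3% of all members) and 0 higher. All 34 fold changes were below 0, with a median of -0.87 against -0.18 over all members. The number lower ran from 20 (without vehicle replicate 3) to 28 with 1 library left out and from 23 (library size alone) to 33 over the other settings. Ifit3, an antiviral protein of the Ifit family (chromosome 19, 34583119 to 34588982), had 96.6, 141, 172 and 83.1 CPM with vehicle and 27.9, 32.7, 25.9 and 30.02 CPM with entinostat, a log2 fold change of -2.08 ± 0.21 at an edgeR adjusted p of 3.85e-05. Ifit3 and Ifit3b are near-identical, so their separate counts are uncertain. Ifit1, which binds viral RNA ends, had 156, 166, 228 and 107 CPM with vehicle and 42.8, 63.3, 60.7 and 54.9 CPM with entinostat, a log2 fold change of -1.56 ± 0.18 at an edgeR adjusted p of 7e-05. Cmpk2, a mitochondrial nucleotide kinase, had 84.3, 107, 136 and 54.6 CPM with vehicle and 20.1, 26.3, 24.4 and 20.02 CPM with entinostat, a log2 fold change of -2.07 ± 0.24. Bst2, the tetherin that also marks plasmacytoid dendritic cells, had 131, 102, 132 and 133 CPM with vehicle and 61.4, 60.5, 53.7 and 65.2 CPM with entinostat, a log2 fold change of -1.05 ± 0.12. In each of the 4 genes the groups were separate.

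The order of the vehicle libraries differed from that of the plasmacytoid markers. Vehicle replicate 4, with 437 CPM of Siglech, was the lowest vehicle library for 28 of the 34 effectors, and vehicle replicate 2, with the lowest Siglech, for 5. Isg15, a ubiquitin-like protein, had 52.2, 46.1, 71.2 and 36.3 CPM with vehicle and 24.5, 24.5, 27.4 and 33.1 CPM with entinostat. Its libraries did not overlap, yet it missed the threshold with a log2 fold change of -0.91 ± 0.31 at an edgeR adjusted p of 0.0533. Upstream of these genes, Irf7, the factor that amplifies interferon production, had 279, 226, 302 and 190.4 CPM with vehicle and 145, 157, 119.6 and 151 CPM with entinostat, a log2 fold change of -0.80 ± 0.15 at an edgeR adjusted p of 0.00365. Ifnar2, a chain of the type I interferon receptor, fell by 0.52 ± 0.12 on the log2 scale, while Ifnar1 stood at -0.33 and did not pass. Of 19 receptors, kinases and factors 6 were lower (31.6%, beside 12.3% of all members). The count was 3 without vehicle replicates 3 or 4 or entinostat replicates 1, 2 or 3. Of 11 nucleic acid sensors and adaptors 5 were lower (45.5%), and 2 without vehicle replicate 3. Tlr7, an endosomal RNA receptor on the plasmacytoid list, had 74.2, 37.8, 94.4 and 94.1 CPM with vehicle and 15.99, 12.1, 17.9 and 18.6 CPM with entinostat, and its chaperone Unc93b1 had 310.1, 187, 304 and 328 CPM and 103, 118, 89.4 and 142 CPM. Their log2 fold changes were -2.21 ± 0.37 and -1.32 ± 0.16.

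The guanylate-binding and immunity-related GTPases, induced mainly by interferon gamma, gave no call. None of 16 passed the edgeR test, 2 had an unadjusted p under 0.05, DESeq2 called 1 and limma-voom 5, and their median log2 fold change was 0.02, or 0.19 with library size alone. They numbered 1 lower without vehicle replicate 4, entinostat replicate 4 or day 17 entinostat replicate 2. Gbp2, a guanylate-binding protein, had 205, 226, 231 and 186 CPM with vehicle and 165, 209.5, 172 and 223 CPM with entinostat, and its groups overlapped. Ifng itself had 192, 192, 191 and 133 CPM with vehicle and 245, 199, 171 and 241 CPM with entinostat, a log2 fold change of 0.27 ± 0.20, which did not pass.

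Many promoters of both families carry the core of the interferon-stimulated response element, a site bound in the interferon response. The sequences below were taken from RefSeq (GRCm38.p6), each the 150 bases from 170 to 21 bases before the start that the RefSeq promoter table gives, 5′ to 3′ on the gene's strand. For Ifit3 that start is base 34583529, which lies 410 bases inside the gene span given above. Capitals mark GAAA, any 2 bases and GAAA, on either strand. Ifit1 lies at chr19:34640719-34640868 (+), Ifit3 at chr19:34583359-34583508 (+), Bst2 at chr8:71537493-71537642 (-) and Gbp2 at chr3:142620493-142620642 (+). Transcripts of the first 3 genes were lower with entinostat, and that of Gbp2 did not pass. The 4 promoters are shown as examples that hold these letters, and Gbp2 was chosen after its values were seen. Whether the motif bears on the fold changes was not tested.
Ifit1: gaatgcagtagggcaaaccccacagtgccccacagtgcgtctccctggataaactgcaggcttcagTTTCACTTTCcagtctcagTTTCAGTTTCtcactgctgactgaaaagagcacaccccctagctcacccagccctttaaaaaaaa
Ifit3: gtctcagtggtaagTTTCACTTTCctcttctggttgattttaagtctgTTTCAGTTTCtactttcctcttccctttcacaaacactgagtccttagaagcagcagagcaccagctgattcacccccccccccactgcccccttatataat
Bst2: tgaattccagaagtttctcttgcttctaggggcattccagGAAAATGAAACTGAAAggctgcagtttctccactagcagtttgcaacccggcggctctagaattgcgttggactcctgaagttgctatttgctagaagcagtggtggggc
Gbp2: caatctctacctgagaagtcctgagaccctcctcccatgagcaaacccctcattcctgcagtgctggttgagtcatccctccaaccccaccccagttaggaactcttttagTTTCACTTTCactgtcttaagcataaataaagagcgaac
Ifit1 and Ifit3 each hold 2 matches, Bst2 holds 2 that overlap and Gbp2 holds 1. On either strand, the motif was in the 300 bases around a start (250 before to 50 after) of 1079 of 27025 genes in the RefSeq table (3.99%) and of 304 of 7599 members with an entry (4.001%). Of the 34 effectors, 26 had an entry and 16 of these held the motif (61.5%). It was in 10 of 19 lower effectors and in 6 of 7 that did not pass. All 9 of the interferon gamma GTPases with an entry held it, and none of them was called. A match describes letters only, and no binding was measured here.

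Of 13 genes of the T cell receptor complex and coreceptors, Cd4 and Thy1 were lower (15.4%, near the 12.3% of all members) and 11 did not pass. With library size alone, or with most single libraries left out, Cd4 alone was called. Cd8a had 413, 432, 429.5 and 401 CPM with vehicle and 362, 309, 324 and 330.5 CPM with entinostat, groups that did not overlap, with a log2 fold change of -0.34 ± 0.13 that missed the threshold (edgeR adjusted p = 0.0757). Cd8a passed as lower with limma-voom and without day 17 entinostat replicate 3. Cd8b1 had 400.3, 399, 418 and 366 CPM with vehicle and 408, 329.5, 357 and 301 CPM with entinostat, and these overlapped. In signalling below the receptor, 4 of 23 genes were lower (17.4%), and 2 with library size alone or without vehicle replicates 1, 2 or 3 or entinostat replicates 1, 2 or 3. All 23 had fold changes below 0, with a median of -0.19 beside -0.18 over all members. In 7 of the 23 the entinostat libraries lay below all vehicle libraries, as they did for 22.1% of all members. Vav1, an exchange factor activated by the receptor, had 379, 375, 425 and 361 CPM with vehicle and 274, 327, 282 and 270.4 CPM with entinostat, a log2 fold change of -0.42 ± 0.09. Sla2, an adaptor that dampens receptor signals, had 257, 206, 237 and 244 CPM with vehicle and 139, 163, 154 and 182 CPM with entinostat, a log2 fold change of -0.56 ± 0.11. None of 28 AP-1 and immediate early genes, which respond to that signalling, passed the edgeR test, and their median was -0.03. Of these, 6 had an unadjusted p under 0.05, DESeq2 called 1 and limma-voom 4, and 1 was lower without replicate 4 of either group.

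Effector genes were mixed. Perforin (Prf1) had 189, 159.9, 192 and 149 CPM with vehicle and 164, 222, 198 and 185 CPM with entinostat, overlapping groups with a log2 fold change of 0.16 ± 0.15. Granzyme B (Gzmb) had 298, 240.0, 357 and 268 CPM with vehicle and 518, 434, 467 and 339 CPM with entinostat, a log2 fold change of 0.59 ± 0.25 that missed the threshold (edgeR adjusted p = 0.103). Gzmb passed as higher in 5 of 27 alternatives. These were limma-voom, the 8 day 10 libraries alone, the replicate block on them, and entinostat replicate 4 or day 17 entinostat replicate 3 left out. Of 19 cytotoxic granule genes at the floor, Gzma was higher and 6 were lower (31.6% beside 12.3% of all members; Ctsw, Ctsc, Cst7, Unc13d, Rab27a and Gnptab). Unc13d and Rab27a act in granule release. Ctsc, the protease that activates granzymes, had 273, 273, 282 and 271 CPM with vehicle and 163, 201, 194 and 156 CPM with entinostat, a log2 fold change of -0.62 ± 0.11. Cst7, an inhibitor of Ctsc and other cathepsins, had 115, 139, 107 and 101 CPM with vehicle and 71.8, 73.9, 75.9 and 74.5 CPM with entinostat, a log2 fold change of -0.64 ± 0.14. The lower ones numbered 3 without vehicle replicates 1 or 3 or entinostat replicates 1 or 3, and 2 with library size alone.

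Among 22 inhibitory receptor and exhaustion genes, Lilrb4a was higher and 5 were lower (22.7%; 1 to 6 with 1 library left out, fewest without vehicle replicate 1 or entinostat replicate 3). Cd38, an enzyme that consumes NAD, had 98.7, 107, 125 and 120.0 CPM with vehicle and 74.7, 66.9, 67.8 and 74.7 CPM with entinostat, a log2 fold change of -0.66 ± 0.14. Pdcd1, the PD-1 checkpoint receptor, had 469, 441, 377 and 371 CPM with vehicle and 431, 401, 380.2 and 362 CPM with entinostat, with overlap. Of 37 effector, memory and exhaustion transcription factors, Pbx3 and Meis3 were higher and Zeb2 and Runx2 lower (5.41%, beside 12.3% of all members). Meis3 lost its call without vehicle replicates 1 or 3 or entinostat replicate 2. Runx2, which plasmacytoid dendritic cells also express, fell by 0.60 ± 0.13 on the log2 scale. Tcf7, the factor of stem-like T cells, had 543, 584, 481 and 429.6 CPM with vehicle and 539, 589, 532 and 459.7 CPM with entinostat, and did not pass. Of 20 naive and memory genes 4 were lower (20.0%), a count that ran from 1 to 5 with 1 library left out, fewest without vehicle replicate 1 or entinostat replicate 3. Il10rb, a receptor chain for IL-10, interferon lambda and related cytokines, had 166, 175, 163 and 157 CPM with vehicle and 104, 111, 98.4 and 139 CPM with entinostat, a log2 fold change of -0.54 ± 0.12.

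**Figure D5:**
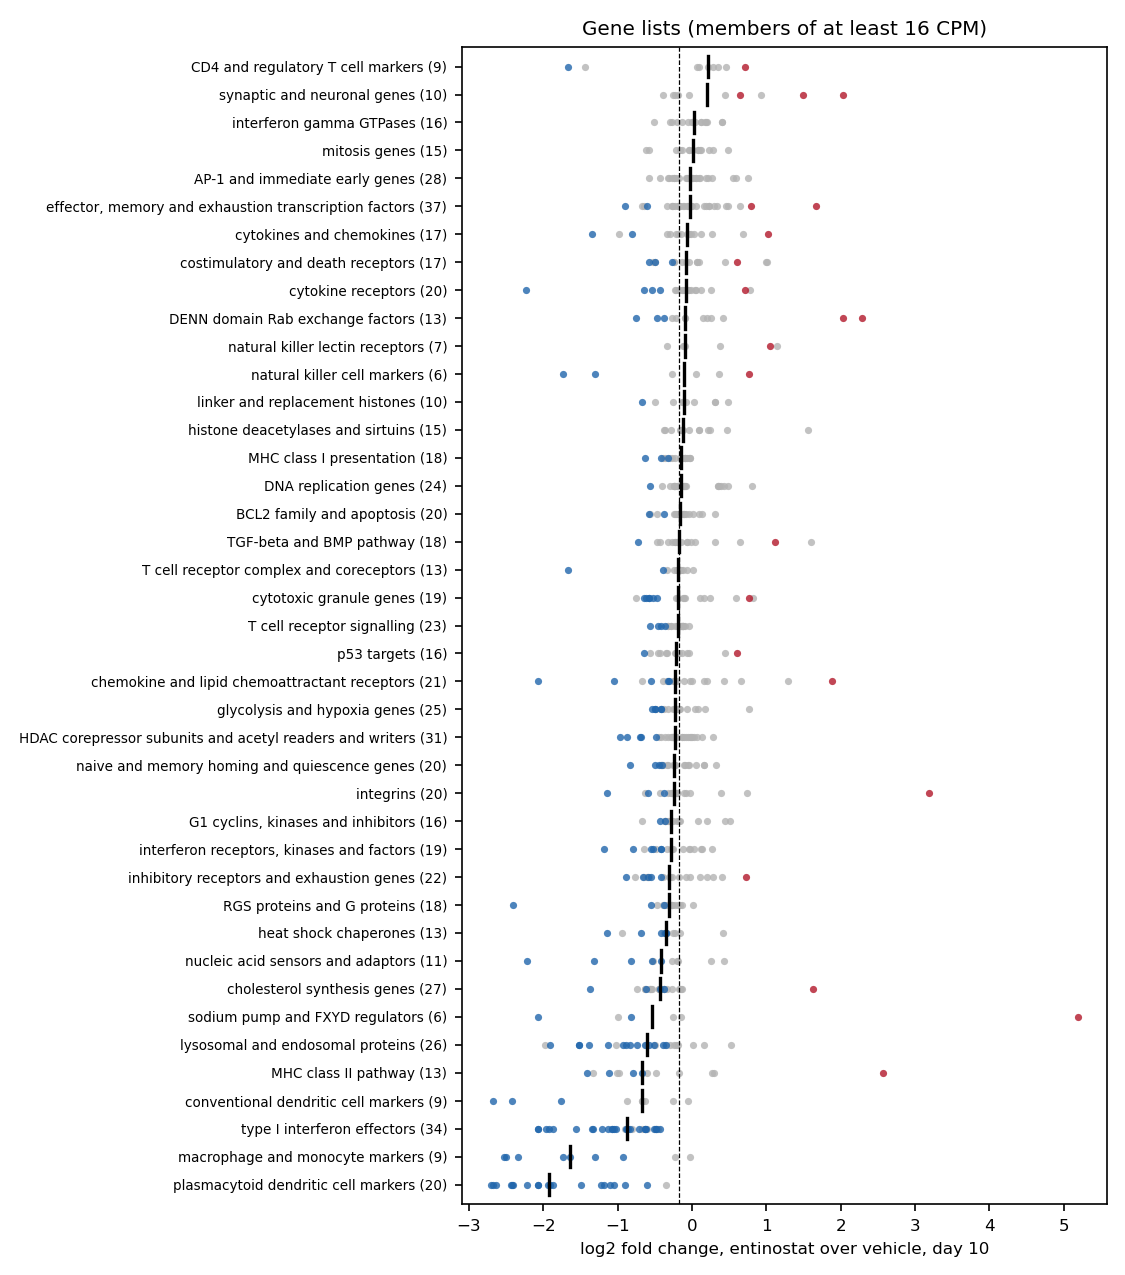
Log2 fold change at day 10 (horizontal axis) of each gene at the floor in the 41 lists with at least 5 such genes (number in parentheses), with red for higher and blue for lower genes at an edgeR adjusted p of 0.05, black bars for list medians and a dashed line for the median of all members, -0.18. The plasmacytoid list has the lowest median, -1.92, and the interferon gamma GTPases stand at 0.02.

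The targets of the drug showed no change in transcript level that passed. Hdac1 had 131, 123, 142 and 122 CPM with vehicle and 140.2, 130.0, 118 and 119 CPM with entinostat, Hdac2 had 106, 117, 108 and 119 CPM and 89.2, 124, 102 and 91.7 CPM, and Hdac3 had 116, 116, 138 and 139.9 CPM and 103, 137, 94.1 and 129 CPM. The groups overlapped in all 3, and the sign of each log2 fold change (-0.03, -0.14 and -0.14) turned with library size alone. None of 15 deacetylases and sirtuins passed the edgeR test, 3 had an unadjusted p under 0.05, DESeq2 called 1 and limma-voom 3. Hdac9, a class IIa member under 3 times the receptor density, had 21.7, 2.85, 18.2 and 23.5 CPM with vehicle and 72.5, 41.4, 72.2 and 11.3 CPM with entinostat. It missed the threshold (edgeR adjusted p = 0.0539), and 1 gene of the list was higher without entinostat replicate 4 or day 17 vehicle replicate 1. Of 31 corepressor subunits, acetyl readers and acetyltransferases 5 were lower (16.1%, near the 12.3% of all members) and 0 higher, and 3 were lower with library size alone.

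Mbd3, a subunit of the NuRD complex that carries HDAC1 and HDAC2, had 105, 105, 96.7 and 104 CPM with vehicle and 56.1, 67.2, 56.4 and 72.02 CPM with entinostat, a log2 fold change of -0.70 ± 0.11 at an edgeR adjusted p of 0.00105. Mbd2, its methyl-DNA-binding relative, had 167, 162, 178 and 150.3 CPM with vehicle and 70.6, 140.0, 62.6 and 84.7 CPM with entinostat, a log2 fold change of -0.87 ± 0.20 at an edgeR adjusted p of 0.0103. Crebbp, an acetyltransferase, had 247, 261, 283 and 225 CPM with vehicle and 132, 182, 149 and 167 CPM with entinostat, a log2 fold change of -0.69 ± 0.14 at an edgeR adjusted p of 0.00504. Groups were separate in all 3, and entinostat replicate 2 was closest to vehicle for Mbd2. H2afj, a replacement histone, fell by 0.67 ± 0.12 on the log2 scale.

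Few cell division genes passed. None of 15 mitosis genes passed the edgeR test, also with any 1 library left out, and none passed DESeq2 or limma-voom. Of the 15, 1 had an unadjusted p under 0.05, and their median was 0.01. Mki67, a marker of cycling cells, had 64.8, 48.5, 88.2 and 90.2 CPM with vehicle and 89.6, 66.9, 82.3 and 70.95 CPM with entinostat, with overlap. Of 24 replication genes 1 was lower (4.17% beside 12.3% of all members; Pold1, whose call was lost with library size alone), and of 16 cyclins, kinases and inhibitors of G1 Ccnd2 and Ccnd3 were lower (12.5%), neither with library size alone. Cdkn1a, the p21 inhibitor, had 99.6, 53.7, 84.4 and 84.2 CPM with vehicle and 118, 72.9, 103 and 141 CPM with entinostat, a log2 fold change of 0.44 ± 0.20 that did not pass. Cdkn1a passed as higher with the replicate block on the 8 day 10 libraries and without entinostat replicate 2. Ccng1, a p53 target, had 251, 239.8, 274 and 215 CPM with vehicle and 153, 165, 153 and 155 CPM with entinostat, a log2 fold change of -0.64 ± 0.11 at an edgeR adjusted p of 0.00236.

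Metabolic and stress lists depended on the scaling. Of 25 glycolysis and hypoxia genes 5 were lower (20.0%, beside 12.3% of all members), and 2 with library size alone. Pfkl, a phosphofructokinase, and Gpi1, the isomerase that acts before it, were lower in both, at -0.49 ± 0.09 and -0.41 ± 0.08. Of 27 cholesterol genes 4 were lower (14.8%) and Abca1, the cholesterol exporter, at 2.14 times the receptor density with entinostat, was higher, at 1.62 ± 0.33. Without entinostat replicate 4, 13 were lower, and with library size alone, or without vehicle replicates 3 or 4 or entinostat replicate 1, 0 were. Abca1 had 23.5, 15.6, 11.7 and 16.996 CPM with vehicle and 47.2, 83.7, 56.4 and 22.2 CPM with entinostat, so entinostat replicate 4, the lowest of its group, overlapped vehicle. Of 13 heat shock chaperones 6 were lower (46.2%), 1 without vehicle replicates 1, 2 or 3 or entinostat replicates 2 or 3, and 0 with library size alone. Of 18 genes of class I MHC presentation 3 were lower (16.7%), among them Psmb10, an immunoproteasome subunit, at -0.63 ± 0.12. The count was 1 without vehicle replicate 2 or with library size alone, and 5 without entinostat replicate 4.

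The same contrast at day 17 used other libraries. Of the 1151 genes lower at day 10, 1020 had a fold change below 0 at day 17 and 688 were also lower there by the edgeR test. Of the 238 higher genes, 204 were above 0 at day 17 and 44 passed. Over all 9384 members, 6732 had the same sign on both days and 2123 passed at day 17 in their day 10 direction. The median log2 fold change of all members at day 17 was -0.23. The difference of the effects passed the edgeR test for 80 of 9384 members (0.853%), of which 4 were higher and 37 lower at day 10. That number was 18, 42, 14 and 35 without vehicle replicates 1 to 4 of day 10 and 21, 16 and 48 without entinostat replicates 1, 3 or 4 of day 10. It was 16 without day 17 entinostat replicate 1 and 30 without day 17 vehicle replicate 3. Prf1 went from 0.16 to 1.93, a difference of 1.78 ± 0.21 (edgeR adjusted p = 0.00138). Mbd2 went from -0.87 to 0.99, a difference of 1.86 ± 0.28 (edgeR adjusted p = 0.0111). Rgs16, which shortens G protein signals and had a call at day 10 that 15 alternatives ended, went from -0.55 to 1.26, a difference of 1.81 ± 0.24 (edgeR adjusted p = 0.00267). For these 3 genes the difference passed with each of the 16 libraries left out. H2-Ob and Bambi stood at 2.57 and 1.11 at day 10 and at 0.18 and -0.24 at day 17. Their differences, day 17 minus day 10, were -2.38 ± 0.45 and -1.35 ± 0.25 (edgeR adjusted p = 0.0279 for both). The call for H2-Ob was lost without vehicle replicates 1 or 3 or entinostat replicates 1, 2 or 3 of day 10, day 17 entinostat replicate 1 or day 17 vehicle replicate 3. The call for Bambi was lost without vehicle replicates 1, 3 or 4 or entinostat replicates 1 or 3 of day 10 or day 17 entinostat replicate 1. Fxyd7, at 3.32, and Itgam, at 2.47, stood above 0 at day 17 too, and neither difference passed.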

How the data were processed

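RNA from sorted tumour CD8 T cells was sequenced after full-length cDNA amplification (SMART-seq v4) and tagmentation (Nextera XT), per the labels' protocols. The values are whole-number read counts per gene as deposited by the authors, 24028 genes in 16 libraries. STAR and mm10 are named, without versions, per the submitters' processing notes. For the counting program, the annotation and duplicate removal, nothing is stated in the sources used here. The kit does not mark strand, so overlapping antisense genes cannot be told apart.

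Genes were tested with edgeR 4.0.16 (R 4.3.3), quasi-likelihood, on the 16 libraries with 4 group means, TMM scaling, filterByExpr at a minimum count of 10 and Benjamini-Hochberg adjustment over 17414 genes at 0.05. Standard errors are the log2 fold change over the square root of F. CPM use TMM-scaled library sizes. Groups came from the labels. Symbols came from the table, or from RefSeq for 27 genes, and exon lengths from the GRCm38 annotation. The fit was tested on simulated counts that spread less than these data, whose common biological coefficient of variation was 0.380. That test cannot show how the fit does at the spread of these data. Some results are not reported here. Named genes are the 15 higher and 15 lower called members of smallest p, up to 4 called members of smallest p per list, and 15 fixed genes of the sort, the drug's targets and T cell function. The 15 higher genes of smallest p at 3 times the receptor density were added after the values were seen, and genes named singly outside this rule (Cp, Isg15, Hdac9, Gbp2, Ifnar1, Tgfbr1, Tgfbr2, Adgre1 and the marker genes) were chosen after their values were seen. The members and gene lists were chosen with earlier results of these data known. The labels do not pair libraries, but deviations of the libraries with equal numbers from their group means correlated at 0.190, 0.262, 0.218 and 0.234, so the replicate number was taken as a block in 2 alternatives. Others were RLE scaling, library size alone, DESeq2 1.42.0, limma 3.58.1 (voom with quality weights), other filters and floors, a receptor covariate and left-out libraries. No pair of libraries agreed within sampling noise.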

Additional observations from a re-analysis of the deposited data

Results flagged for a closer look

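Single libraries stood apart from the other 3 of their group for 15 of 298 groups of named gene and condition at day 10 (gap over range above Dixon's critical value of 0.829 for 4 samples). Chance flags about 1 in 20 groups. Of the 15, 6 were vehicle replicate 2. That library was low for Pld4 (182 CPM, others 329 to 355), Bst2 (102 CPM, others 131 to 133), Grn (299 CPM, others 511 to 529), Irf8 (295 CPM, others 545 to 570.1), H2-Ea-ps (29.8 CPM, others 113 to 118) and H2-Aa (55.2 CPM, others 152 to 168). Vehicle replicate 3 was high for Itgam (23.5 CPM, others 8.29 to 9.41) and low for Mbd3 (96.7 CPM, others 104 to 105). Vehicle replicate 4 was high for Nfib (17.8 CPM, others 7.33 to 9.09) and low for Ifng (133 CPM, others 191 to 192). Entinostat replicate 2 was high for Atp1b1 (53.03 CPM, others 31.98 to 34.8). Entinostat replicate 4 was high for Npc1 (58.4 CPM, others 46.9 to 47.9), Crmp1 (83.1 CPM, others 69.999 to 71.8), Gcat (65.2 CPM, others 38.1 to 39.4) and Cxcl10 (44.7 CPM, others 13.4 to 16.96).

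The effect of entinostat differed between day 10 and day 17 for 12 named genes by the edgeR test of the difference, given here as the day 17 minus the day 10 log2 fold change. It was 1.78 ± 0.21 for Prf1, 1.86 ± 0.28 for Mbd2, 1.81 ± 0.24 for Rgs16 and 1.71 ± 0.35 for Gzmb. For Ccng1, Adrbk1, Hspd1 and Tpi1 it was 0.86 ± 0.16, 0.82 ± 0.17, 0.65 ± 0.14 and 0.91 ± 0.20. For Tyrobp, H2-Ob, Bambi and Kiz it was -1.27 ± 0.27, -2.38 ± 0.45, -1.35 ± 0.25 and -1.25 ± 0.26. The largest adjusted p of the 12 was 0.0455, for Tpi1. With each of the 16 libraries left out in turn the call was kept 16 times for Prf1, Mbd2 and Rgs16, but 2 times for Tyrobp and Kiz, 4 for Tpi1, 5 for Gzmb, 6 for Hspd1, 8 for Adrbk1, 9 for H2-Ob, 10 for Bambi and 11 for Ccng1.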

How the results depend on the processing

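Of 149 named genes, 85 kept their direction and their call in all 27 alternatives. Over all gene results 3464 of 4023 were the same, 526 lost their call, 9 gained one and 24 changed sign, and 64 of 1189 list medians in 41 lists moved by more than the spread between replicates. The cause of these changes was not tested.

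Members changed (1389) numbered 870 with library size alone, 3510 with limma-voom, 885 with the replicate block on the 8 libraries of day 10 and 831 with the replicate block within each day, and 607 to 1758 with 1 library left out. Higher members (238) numbered 407 with library size alone, 415 with DESeq2, 500 with limma-voom, 127 with the block within each day, 486 at a floor of 8 CPM, 98 at 32 CPM and 101 at 3 times the receptor density, and 100 to 340 with 1 library left out. Lower members (1151) numbered 463 with library size alone, 3010 with limma-voom, 595 at a minimum count of 50, 727 on the 8 libraries alone, 649 with the block on them, 704 with the block within each day and 734 with receptor reads as a covariate, and 504 to 1418 with 1 library left out. All genes changed (2534) numbered 6746 with limma-voom, 1332 at a minimum count of 50, 1458 on the 8 libraries, 1085 with the block on them, 1160 with the block within each day and 1525 with the covariate, and 910 to 4151 with 1 library left out. Members whose effect differed between days (80) numbered 127 with RLE scaling, 140 with library size alone, 546 with DESeq2, 209 with limma-voom, 34 without a filter, 280 at a minimum count of 50, 34 with the block within each day, 169 with the covariate, 23 without vehicle replicate 2 and entinostat replicate 4 of day 10 together, and 14 to 101 with 1 library left out. The share of higher calls, 17.1%, was 46.8% with library size alone, 36.6% at a minimum count of 50 and 29.3% on the 8 libraries.

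The log2 fold changes that turned sign were near 0. That of Hdac1 was 0.0204 with RLE scaling, 0.131 with library size alone, 0.0188 with DESeq2, 0.0938 at a minimum count of 50, 0.0655 on the 8 libraries, 0.0654 with the block on them, 0.0099 without vehicle replicate 2 and entinostat replicate 4, and -0.0880 to 0.0231 with 1 library left out. With library size alone it was 0.0192 for Hdac2, 0.0238 for Hdac3, 0.0094 for Cd3e and 0.0878 for Pdcd1. Pdcd1 stood at 0.0532 at a minimum count of 50, 0.0237 on the 8 libraries, 0.0280 with the block on them, 0.0307 without vehicle replicate 2 and entinostat replicate 4, and -0.125 to 0.0170 with 1 library left out. Over those, Mki67 ran from -0.0278 to 0.234 and Hdac8 from -0.0629 to 0.210. Equal numbers correlated best with their own number in 2 of 4 cases, a hint from the data only. Counting error weighs most on genes near the floor of 16 CPM in the shallowest library, of 2639019 counts.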
